A study of Bos taurus with 9 samples.

Results

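Bovine uterine gland fragments grown with EGF in Matrigel containing collagen I were compared with fragments grown in Matrigel without EGF, which close into cysts. The comparison used 6 of the 9 RNA-seq libraries of the series, 3 in each group, and was chosen by culture condition and not by any measured value. All 9 cultures were harvested on day 5 in a serum-free medium that contained albumin, insulin, transferrin, selenite and ascorbic acid. The CYST group received no EGF and no collagen I. The MAT + COL group received EGF and collagen I, at 5 ng/ml and 0.5 mg/ml by the methods section, because the labels name these agents without a concentration. The MAT group received the same EGF in Matrigel without collagen I, and its 3 libraries are given beside the others only to show where the added collagen stood. MAT + COL and CYST therefore differ by EGF and collagen I together, and these agents cannot be told apart in this contrast. The glands came from uteri collected at an abattoir in the luteal phase, animal ages are not given in the sources used here, and the labels number the replicates 1, 2 and 3 in each group without naming the animal behind a number. The study's text speaks of individuals behind the MAT and MAT + COL libraries, but no source used here says so of the CYST libraries or which number is which animal. The deposited column headers carry other numbers, with a wider step between replicates 2 and 3 in all 3 groups, but they too name no animal. The p-values measure the spread between these libraries, which in CYST may be technical.

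Uterine glands are tubes of secretory epithelium that feed the conceptus in ruminants with proteins, lipids and sugars, and in cattle they open into the endometrial surface between the caruncles. EGF binds its receptor EGFR and signals through ERK and other kinases, which in many epithelia drives cell division and migration. Collagen I is the main fibrous protein of the stroma around the glands, whereas Matrigel is an extract of basement membrane rich in laminin and collagen IV, and cells bind each of them through different integrins.

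Between 8424028 and 17948600 reads were assigned to genes in each library, and the MAT + COL libraries (16665013 to 17948600) were deeper than the shallower CYST libraries (8424028 and 9958018). Levels are given as TPM, which is scaled for gene length, and differences as Log2FC from the TMM-normalized counts. In the principal components of the 6 libraries, the first component (33.2% of the variance) placed the CYST group at -89.9 to -46.7 and the MAT + COL group at 41.6 to 81.7. The second component (24.5%) placed replicate 3 of both groups at -82.3 and -76.5, and replicates 1 and 2 at 26.2 to 45.9. Replicate 3 thus stood apart from the other numbers in both groups, and the counts of calls between MAT + COL and CYST below are also given without it.

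**Figure D1:**
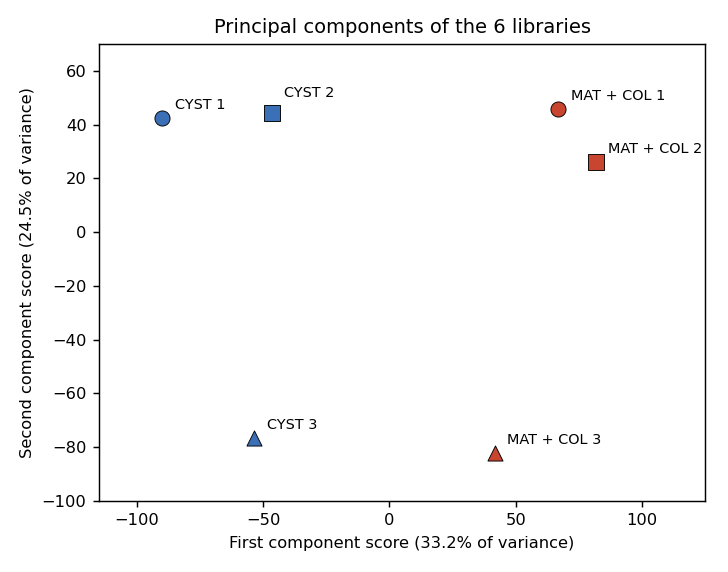
First component score (x axis) against second component score (y axis) of log2 CPM in the 6 libraries, with 1 point per library, the group by colour and the replicate number by shape. The groups separate along the first component, and replicate 3 of each group, at -76.5 and -82.3, sits apart from the other 4 libraries along the second.

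Markers checked the label of epithelial cells. The 10 epithelial markers summed to 20740 to 22840 TPM in CYST and 33380 to 44500 TPM in MAT + COL, a difference of 0.80 on the log2 scale (exact permutation test, two-sided, p = 0.1, the smallest that 3 against 3 allows), and KRT19 was the highest of them. Stromal markers summed to 2275 to 4891 TPM and 2248 to 4333 TPM (exact permutation p = 0.6), so stromal transcripts were present in both groups. DCN was the highest of the stromal markers, with a mean of 945.7 TPM, whereas HAND2 was under 1 TPM in all 6 libraries. Smooth muscle markers summed to 50 to 93 TPM and 47 to 56 TPM, endothelial markers to 15 to 28 TPM and 16 to 44 TPM, immune markers to 30 to 37 TPM and 32 to 38 TPM, with CD79A at 0 in all 6 libraries, and ciliated cell markers to 51 to 114 TPM and 70 to 116 TPM. In these bulk libraries fewer cells of a type and less RNA per cell cannot be told apart, and the part of the epithelial marker difference in the rises of epithelial genes was not tested.

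After genes with low counts were set aside, 12509 were tested by edgeR's quasi-likelihood test. At an adjusted p under 0.05, 186 genes (1.49%) were called, of which 84 genes (0.672%) were higher and 102 genes (0.815%) lower in MAT + COL. DEGs also had to change by more than 1 Log2FC unit and to exceed 1 TPM in every one of the 6 libraries, and they numbered 64 upregulated (0.512%) and 77 downregulated (0.616%). Each of the 141 DEGs had TPM ranges that did not overlap between the groups. The DEGs were chosen on the same 6 libraries, so this gap is largely a product of that choice and is not separate evidence. Of all genes tested, 14.3% had MAT + COL wholly above CYST and 10.3% wholly below. When the replicate number entered as a block, the edgeR test called 658 genes (5.26%), of which 335 were higher (2.68%) and 323 lower (2.58%), with 230 upregulated (1.84%) and 203 downregulated (1.62%) DEGs. All 186 genes called without the block were among the 658 called with it, and 81 of the 658 had overlapping TPM ranges. The median Log2FC of all genes tested was 0.04.

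The number of calls turned on which libraries entered. Without replicate 3 in either group, the blocked fit called 2406 genes (1172 higher, 9.3%, and 1234 lower, 9.79%), whereas it called 126 without replicate 1 and 109 without replicate 2; these fits of 4 libraries leave 1 residual degree of freedom. The shares of 9.3% and 9.79% are the background for each list count without replicate 3 below, which is a count of calls. For the unadjusted counts the background is 21.7% of all genes, at an unadjusted p under 0.05 without the block. Without replicates 1 and 2 the blocked fit called 0.635% and 0.505% of all genes higher and 0.378% and 0.382% lower. It then called at most 6 members of any list, and these counts are given below for the replication, mitotic, nucleolar and serine lists only. Leaving out single libraries from the fit without the block gave 7, 4 and 112 calls without CYST replicates 1, 2 and 3, and 6, 3 and 186 calls without MAT + COL replicates 1, 2 and 3. The same fits gave 7, 3 and 100 DEGs without the respective CYST library and 5, 3 and 166 DEGs without the respective MAT + COL library.

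Some genes of secreted products were among the largest falls, while others, such as GPX3 and QSOX1 below, were among the rises. The gene listed only as ENSBTAG00000007392 (chromosome 21, 59163924 to 59174909 in ARS-UCD2.0) covers the whole RefSeq model of SERPINA14 on that assembly, the uterine serpin or uterine milk protein that ruminant glands release under progesterone. Its level was 5616, 5483 and 7778 TPM in CYST and 27.4, 83.1 and 42.8 TPM in MAT + COL. It was among the most abundant transcripts of every CYST library, and no MAT + COL library came near that range (Log2FC = -7.03, SE 0.57, edgeR adjusted p = 0.0139). GRP (chromosome 24, 58203569 to 58216345), which encodes gastrin-releasing peptide, a gland-made signal of the ruminant uterus, stood at 38820, 40220 and 47760 TPM in CYST and 318, 424 and 398 TPM in MAT + COL. The groups did not overlap, and GRP had the smallest p of all genes tested (Log2FC = -6.88, SE 0.33, edgeR adjusted p = 0.000826).

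RBP4, a carrier of retinol and a known uterine secretion, stood at 1402, 2104 and 916 TPM in CYST and 324, 382 and 376 TPM in MAT + COL (Log2FC = -2.05, SE 0.26, edgeR adjusted p = 0.0268). FABP3, a fatty acid carrier of the cytosol, stood at 142, 66 and 160.0 TPM in CYST and 12.6, 14 and 8 TPM in MAT + COL (Log2FC = -3.53, SE 0.43, edgeR adjusted p = 0.0268). Both genes fell and were lower in each MAT + COL library than in any CYST library. The list of secreted host defense and uterine milk proteins, which holds RBP4 and FABP3, had 22 members tested, of which 1 rose (VTCN1), 2 fell (RBP4 and FABP3) and 19 were not called; its median Log2FC was -0.03. With the replicate block 3 members rose and 2 fell, and without replicate 3 there were 5 and 4. The airway-type secretory gene BPIFA1, named after its values were seen, was 3.23, 1.66 and 1.35 TPM in CYST and 0, 0 and 0 TPM in MAT + COL and was not called (0.0663 as the edgeR adjusted p). The list does not hold ENSBTAG00000007392, because the deposited tables give it no symbol.

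**Figure D2:**
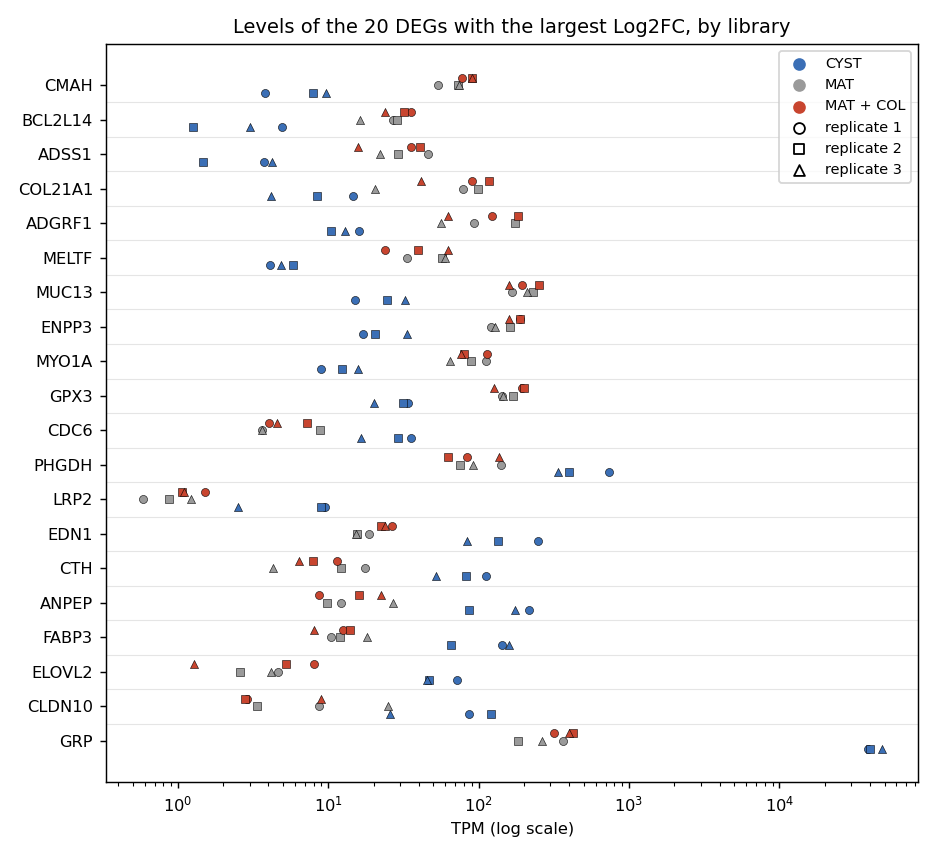
TPM on a log axis (x) of the 10 upregulated and 10 downregulated DEGs with a symbol and the largest Log2FC (y), with 1 point per library, the group by colour and the replicate number by shape. Only DEGs whose TPM ranges did not overlap between MAT + COL and CYST were taken, so the gap between their points follows from that choice. The grey MAT points lie near the MAT + COL points in most of the 20 genes. GRP covers the widest span, from 318 TPM in MAT + COL to 47760 TPM in CYST.

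Among the other DEGs with the largest falls, several encode membrane transport or metabolic proteins. CLDN10, a claudin that forms ion-selective tight junction pores, was 85.8, 120.1 and 25.7 TPM in CYST and 2.87, 2.79 and 8.98 TPM in MAT + COL. Replicate 3 was the lowest CYST library and the highest MAT + COL library, and the ranges still did not overlap (Log2FC = -3.95, SE 0.70, edgeR adjusted p = 0.0456). ELOVL2, an elongase of polyunsaturated fatty acids, stood at 71.7, 46.6 and 45 TPM in CYST and 8.01, 5.22 and 1.28 TPM in MAT + COL (Log2FC = -3.59, SE 0.56, edgeR adjusted p = 0.0383). ANPEP, the apical aminopeptidase N, was 215, 86.8 and 176 TPM in CYST and 8.71, 16 and 22.4 TPM in MAT + COL (Log2FC = -3.40, SE 0.51, edgeR adjusted p = 0.0372). LRP2, the endocytic receptor megalin, had the lowest levels of these genes, at 9.57, 9 and 2.51 TPM in CYST and 1.51, 1.06 and 1.09 TPM in MAT + COL (-2.54 as Log2FC). EDN1, the precursor of the peptide endothelin-1, was 248, 134 and 83.3 TPM in CYST and 26.6, 22.6 and 23.8 TPM in MAT + COL. All 3 MAT + COL libraries were within a narrow range, whereas the CYST libraries spread widely (Log2FC = -2.70, SE 0.34, edgeR adjusted p = 0.0268).

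Enzymes of serine and sulfur amino acid metabolism fell with them. PHGDH, the first enzyme of serine synthesis, was 741, 400.0 and 339.5 TPM in CYST and 83.8, 62.5 and 137 TPM in MAT + COL (Log2FC = -2.41, SE 0.40, edgeR adjusted p = 0.0411). CTH, which splits cystathionine to cysteine, was 111, 82 and 51.8 TPM in CYST and 11.4, 7.87 and 6.37 TPM in MAT + COL (Log2FC = -3.31, SE 0.29, edgeR adjusted p = 0.0139). In both genes the lowest CYST library was well above the highest MAT + COL library. The list of serine, one-carbon and ATF4 genes had 30 members tested, and 4 fell (PHGDH, CTH, MTHFD1 and SLC3A2) and none rose; the median Log2FC was -0.71 and 27 of 30 values were negative. With the replicate block 7 fell, adding PSAT1 (-1.27), PSPH (-1.28) and MTHFD2 (-1.66 as Log2FC), which act in serine synthesis and the mitochondrial folate cycle. The blocked fits called 2 lower without replicate 1, 1 without replicate 2 and 18 without replicate 3, where 2 were also higher.

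Other abundant genes that fell were SLC25A5, a mitochondrial ADP/ATP carrier, with 689.5, 583 and 414 TPM in CYST and 197, 194 and 204 TPM in MAT + COL, and TKT, the transketolase of the pentose phosphate pathway, with 470.0, 407 and 262 TPM in CYST and 218, 175 and 177 TPM in MAT + COL. No MAT + COL library reached the CYST range in either gene, with Log2FC -1.55 and -1.05. Some large falls failed only the TPM criterion. FST, which encodes the activin-binding protein follistatin, had 180, 23 and 174 reads in CYST and 2, 1 and 2 in MAT + COL. Its mean over the CYST libraries was at least 77.8-fold above a floor of 3 counts per MAT + COL library, with CYST replicate 2 nearer to that floor. SLC10A2, a sodium-dependent bile acid transporter, had 30, 39 and 17 reads in CYST and 1, 0 and 0 in MAT + COL. By the same measure of group means it was at least 14.4-fold lower. RNASE1 (-5.54), a secreted ribonuclease, ROBO3 (-3.61), a guidance receptor, and MYB (-2.74), a transcription factor of proliferating cells, also fell.

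Upregulated DEGs had varied functions, and those of glycan synthesis and the apical surface are given first. CMAH (chromosome 23, 32697165 to 32755478), which converts the sialic acid Neu5Ac to Neu5Gc, was 3.79, 7.97 and 9.59 TPM in CYST and 77.8, 90.7 and 90.3 TPM in MAT + COL. The 3 MAT + COL libraries lay close together, far above the CYST libraries (Log2FC = 3.50, SE 0.39, edgeR adjusted p = 0.0259). MUC13, a transmembrane mucin, was 15, 24.7 and 32.2 TPM in CYST and 193, 254 and 158 TPM in MAT + COL (Log2FC = 2.96, SE 0.37, edgeR adjusted p = 0.0268). MYO1A, the myosin of the brush border, was 8.9, 12.4 and 15.7 TPM in CYST and 113, 80.3 and 75.9 TPM in MAT + COL (Log2FC = 2.75, SE 0.30, edgeR adjusted p = 0.0259). Both had MAT + COL libraries several fold above every CYST library. C1GALT1, the enzyme that builds the core 1 O-glycan, was 11.8, 14.4 and 16.4 TPM in CYST and 89.9, 93.1 and 70.8 TPM in MAT + COL and was among the 3 rises with the smallest p (Log2FC = 2.48, SE 0.23, edgeR adjusted p = 0.0162).

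GPX3, a secreted glutathione peroxidase, was 34.2, 31.5 and 20.3 TPM in CYST and 195, 199 and 126 TPM in MAT + COL (Log2FC = 2.54, SE 0.22, edgeR adjusted p = 0.0139). PAQR6, a membrane progestin receptor, was 20.8, 27.2 and 26.1 TPM in CYST and 144, 141 and 148 TPM in MAT + COL, with little spread in either group (Log2FC = 2.47, SE 0.20, edgeR adjusted p = 0.0139). MELTF, the iron-binding melanotransferrin, was 4.12, 5.8 and 4.88 TPM in CYST and 23.8, 39.5 and 62.7 TPM in MAT + COL, with replicate 3 the highest of the MAT + COL libraries (3.05 as Log2FC). Further large rises were BCL2L14, a BCL2 family member (3.25), ADSS1, an adenylosuccinate synthase (3.17), COL21A1, a fibril-associated collagen (3.17), ADGRF1, an adhesion G protein-coupled receptor (3.14), and ENPP3, an ectonucleotide pyrophosphatase (2.81). Among rises at high level were the collagenase MMP13, with 375, 618 and 456 TPM in CYST and 2303, 2710 and 1758 TPM in MAT + COL, and GRN, the granulin precursor, with 434, 519.7 and 548 TPM in CYST and 1449, 1196 and 1002 TPM in MAT + COL. Neither overlapped between groups, with Log2FC 2.15 and 1.19. QSOX1, a secreted enzyme that forms disulfides (2.12), S100A4, a calcium-binding protein (2.26), and FAM234A (1.07) completed the 5 upregulated DEGs with the highest mean TPM over the 6 libraries.

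Some of the largest rises began from almost no reads and so failed the TPM criterion. VTCN1, the immune checkpoint ligand B7-H4, had 0, 0 and 0.543 TPM in CYST and 32.5, 40 and 42.7 TPM in MAT + COL, or 0, 0 and 9 reads against 839, 1065 and 1072. The CYST reads were all in replicate 3 (Log2FC = 7.67, SE 0.97, edgeR adjusted p = 0.0268, a fitted fold that depends on how zeros are handled). CSTA, the protease inhibitor cystatin A of squamous epithelia, was 0, 0.689 and 1.38 TPM in CYST and 22.4, 33.2 and 29.2 TPM in MAT + COL (0.0376 as the edgeR adjusted p). COL17A1, the transmembrane collagen of hemidesmosomes, was 1.13, 0.195 and 0.33 TPM in CYST and 10.8, 6.83 and 24.5 TPM in MAT + COL (0.0416 as the edgeR adjusted p). CHST4, a sulfotransferase of mucin-type glycans (4.56), and ATP8B4, a phospholipid flippase (5.02), also rose.

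DNA replication genes were lower in MAT + COL, with some members passing the test and most leaning the same way. Origin licensing and helicase genes numbered 25, of which 6 fell, none rose and 19 were not called, with a median Log2FC of -1.10. CDC6, which loads the MCM helicase on origins, was 35.4, 29 and 16.4 TPM in CYST and 4.06, 7.27 and 4.59 TPM in MAT + COL (Log2FC = -2.37, SE 0.34, edgeR adjusted p = 0.0338). MCM5, a subunit of that helicase, was 73.7, 71.2 and 61.3 TPM in CYST and 16.8, 21.9 and 19 TPM in MAT + COL, with little spread in either group (Log2FC = -1.89, SE 0.18, edgeR adjusted p = 0.0162). GINS2 (-2.24), MCM3 (-1.70) and MCM6 (-1.47) fell too. With the replicate block 10 members fell, adding ORC1 (-2.79), ORC5 (-1.34), MCM10 (-1.21) and GMNN (-1.14 as Log2FC). The TPM ranges of MCM10 overlapped between the groups. The blocked fits called 5 lower without replicate 1, 6 without replicate 2 and 18 without replicate 3.

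Replication fork and nucleotide supply genes numbered 32, of which 7 fell and none rose, with a median Log2FC of -1.05. RRM2, the regulated subunit of ribonucleotide reductase, was 206, 196 and 177 TPM in CYST and 37.6, 63.4 and 60 TPM in MAT + COL (Log2FC = -1.90, SE 0.26, edgeR adjusted p = 0.0304). PCNA, the sliding clamp, was 289, 267 and 178 TPM in CYST and 108, 116 and 105 TPM in MAT + COL (Log2FC = -1.20, SE 0.17, edgeR adjusted p = 0.0308). DTYMK, thymidylate kinase (-1.67), and POLD2, a subunit of DNA polymerase delta (-1.17), were also lower in every MAT + COL library. With the block 15 members fell, against 2 without replicate 1, 2 without replicate 2 and 24 without replicate 3. Among G1 cyclins and inhibitors 1 of 20 fell, CCNE2, a cyclin of S phase entry, at 21.7, 25.7 and 14 TPM in CYST and 5.29, 7.76 and 5.49 TPM in MAT + COL (Log2FC = -1.76, SE 0.28, edgeR adjusted p = 0.0383); the list's median was -0.26, the block left the count at 1, and without replicate 3 there were 6 lower.

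Mitotic genes gave unlike values in the replicate numbers. None of 38 members of the mitotic spindle and cytokinesis list was called by edgeR without the block (17 at an unadjusted p under 0.05, against 21.7% of all genes), although the median Log2FC was -0.94 and all 38 values were negative, and BUB3, a checkpoint protein, was the 1 member that fell with the block (Log2FC = -0.78, SE 0.16, edgeR adjusted p = 0.0463 with the replicate block). The blocked fit called 35 of the 38 lower without replicate 3, and 0 of them without replicate 1 or without replicate 2. On log2(TPM + 1) within same-numbered libraries, the median difference between MAT + COL and CYST was -2.15 in replicate 1, -0.86 in replicate 2 and -0.08 in replicate 3. MKI67, a marker of cycling cells, stood at 23.9, 11.9 and 9.61 TPM in CYST and 1.04, 5.14 and 11.8 TPM in MAT + COL. It was lower in MAT + COL in replicates 1 and 2 and higher in replicate 3, and was not called (0.373, with the block 0.282, as edgeR adjusted p). Origin licensing genes differed by -1.01, -0.98 and -0.53 and replication fork genes by -1.19, -0.91 and -0.66 in replicates 1, 2 and 3, while the median over all genes was 0.11, -0.06 and 0.17. The difference between replicate numbers was not tested, since each pair is 1 observation.

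Nucleolar ribosome biogenesis genes were below 0 in all 36 members tested, with a median Log2FC of -0.82, and 6 of them fell. BYSL, a factor of small subunit assembly, was 41.2, 40 and 28.3 TPM in CYST and 17.9, 14.7 and 15.9 TPM in MAT + COL (Log2FC = -1.23, SE 0.17, edgeR adjusted p = 0.0308). DKC1, the pseudouridine synthase dyskerin, was 206, 179 and 133 TPM in CYST and 88.1, 72.7 and 78.7 TPM in MAT + COL (Log2FC = -1.17, SE 0.16, edgeR adjusted p = 0.0308). No MAT + COL library reached the CYST range in either gene. With the block 11 members fell, adding FBL (-1.07), NOP56 (-1.01), GAR1 (-0.85), NOP2 (-0.84) and RRS1 (-1.11 as Log2FC). The blocked fit called 29 lower without replicate 3, and 0 without replicate 1 or without replicate 2. Cholesterol synthesis genes gave no call in 24 members by edgeR, 8 of them at an unadjusted p under 0.05, with a median of -0.36; MVK, mevalonate kinase, fell with the block (Log2FC = -0.97, SE 0.20, edgeR adjusted p = 0.0489 with the replicate block), and without replicate 3 there were 12 lower and 1 higher.

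**Figure D3:**
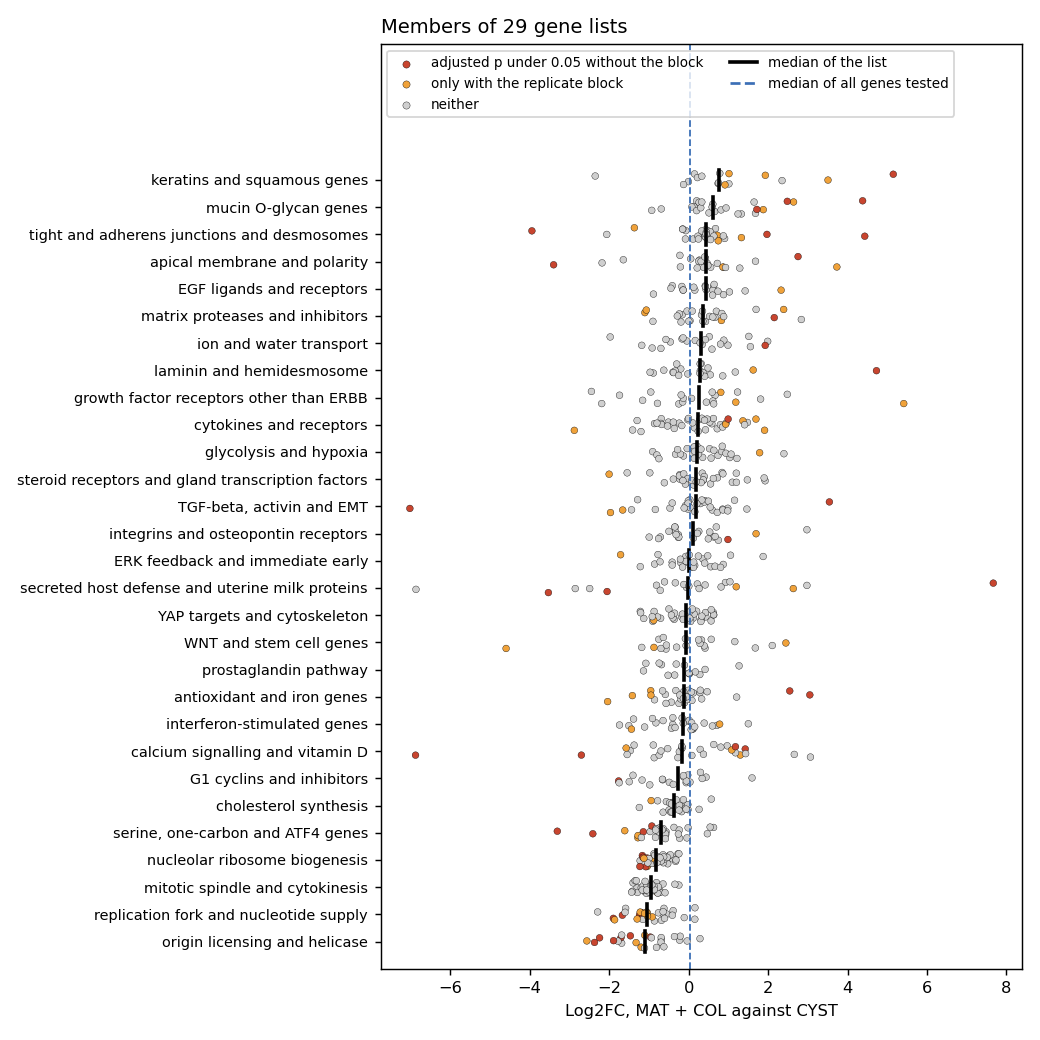
Log2FC of MAT + COL against CYST (x axis) for the tested members of 29 gene lists (y axis), with 1 point per gene coloured by whether it was called, a black bar at the median of each list and a dashed line at the median of all genes, 0.04. Replication, mitotic, nucleolar and serine lists sit to the left, with medians from -1.10 to -0.71, and keratin and mucin lists to the right, at 0.77 and 0.61.

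Epithelial lists lay above the median of all genes. The summed epithelial markers given above share members with these lists, KRT19 and CDH1 among them, so their sum is not separate evidence. Most of the sum was KRT19 and KRT8, with means of 7751 and 8314 TPM in CYST and 16470 and 14870 TPM in MAT + COL. None of the 10 markers was called by edgeR without the block. Of 25 mucin O-glycan genes tested, 3 rose and none fell, with a median Log2FC of 0.61 and 23 positive values. Beside C1GALT1 these were B3GNT3, which extends the core 1 glycan, at 59.3, 89.5 and 69.4 TPM in CYST and 279, 288 and 189 TPM in MAT + COL (Log2FC = 1.72, SE 0.22, edgeR adjusted p = 0.0268), and MUC4, a large transmembrane mucin, at 0.665, 0.0761 and 0.63 TPM in CYST and 7.8, 15.3 and 6.17 TPM in MAT + COL (Log2FC = 4.38, SE 0.79, edgeR adjusted p = 0.0473). The groups were apart in both, and MUC4 was under 1 TPM in each CYST library. GALNT5 (2.50), which starts O-glycans, and ST6GAL1 (2.01 as Log2FC), a sialyltransferase of N-glycans, were called with the block, giving 5 higher, and without replicate 3 there were 11 higher and 1 lower.

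Keratins and squamous genes had the highest median, 0.77, with 13 of 16 positive, and CSTA alone rose. With the block 5 members rose, and without replicate 3 there were 6 higher and 2 lower. KRT19, a keratin of simple epithelium and one of the most abundant transcripts, was 8079, 7413 and 7763 TPM in CYST and 17770, 13330 and 18320 TPM in MAT + COL. It was not called without the block (Log2FC = 1.02, SE 0.22, edgeR adjusted p = 0.0636) and rose with it (Log2FC = 1.01, SE 0.16, edgeR adjusted p = 0.0322 with the replicate block). SPRR3, a cornified envelope protein, was 26.9, 31.9 and 299 TPM in CYST and 382, 1604 and 2586 TPM in MAT + COL, with replicate 3 far above the others in CYST (Log2FC = 4.10, SE 0.56, edgeR adjusted p = 0.0235 with the replicate block). S100A14 (0.0186) and PERP (0.0398 as edgeR adjusted p with the block), the latter a desmosome-associated protein, were the other members called with the block only. KRT5, the basal keratin, was 1.04, 12.6 and 11.7 TPM in CYST and 0.588, 1.34 and 3.23 TPM in MAT + COL and was not called.

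Of 31 junction genes, 2 rose and 1 fell, with a median Log2FC of 0.44. The fall was CLDN10, and the rises were CLDN23, another claudin, at 3.03, 4.84 and 2.95 TPM in CYST and 13.9, 19.1 and 11.3 TPM in MAT + COL (Log2FC = 1.97, SE 0.31, edgeR adjusted p = 0.0383), and DSG3, a desmoglein of stratified epithelia, at 0.34, 0.42 and 0.105 TPM in CYST and 3.55, 4.83 and 10.8 TPM in MAT + COL (Log2FC = 4.43, SE 0.68, edgeR adjusted p = 0.0376). With the block 5 rose and 2 fell, adding TJP1, the scaffold ZO-1 (0.73), CGN, cingulin (0.75), DSC2, a desmocollin (1.26), and on the falling side CLDN8 (-1.26 as Log2FC); without replicate 3 there were 9 higher and 2 lower. CDH1, E-cadherin, was 345, 465 and 246 TPM in CYST and 499, 515 and 449.6 TPM in MAT + COL and overlapped between the groups (Log2FC = 0.43, SE 0.20, edgeR adjusted p = 0.258). Of 26 apical membrane and polarity genes, MYO1A rose and ANPEP fell, with a median of 0.43; the block added CDHR2, a brush border protocadherin (4.17), and RAB25, a recycling GTPase (0.85 as Log2FC), and without replicate 3 there were 8 higher and 3 lower. Among 22 ion and water transport genes, FXYD3, a regulator of the sodium pump, rose, with 9.24, 8.07 and 7.77 TPM in CYST and 32.7, 36.8 and 30.2 TPM in MAT + COL (Log2FC = 1.93, SE 0.28, edgeR adjusted p = 0.0338), the median was 0.31, and without replicate 3 there were 2 higher and 2 lower.

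EGF ligands and receptors gave no call in 20 members by edgeR, 7 of them at an unadjusted p under 0.05, without the block, with a median Log2FC of 0.43 and 14 positive values. AREG, the EGFR ligand amphiregulin, was 15.3, 24.1 and 6.8 TPM in CYST and 115, 82.4 and 42.3 TPM in MAT + COL. All MAT + COL libraries were above all CYST libraries, yet AREG narrowly missed the threshold (Log2FC = 2.33, SE 0.45, edgeR adjusted p = 0.0546) and rose with the block (Log2FC = 2.36, SE 0.25, edgeR adjusted p = 0.0163 with the replicate block). BTC, betacellulin, was 4.48, 3.63 and 2.84 TPM in CYST and 8.04, 11.1 and 11 TPM in MAT + COL (Log2FC = 1.42, SE 0.30, edgeR adjusted p = 0.0617). EGFR itself was 29.9, 30.1 and 16.2 TPM in CYST and 34.6, 25.9 and 43.2 TPM in MAT + COL, higher in MAT + COL in replicates 1 and 3 and lower in replicate 2 (Log2FC = 0.42, SE 0.27, edgeR adjusted p = 0.414), and HBEGF overlapped at 62.2, 74.7 and 58.9 TPM in CYST and 88.3, 64 and 75.9 TPM in MAT + COL. Without replicate 3, 6 members were higher and 1 lower.

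ERK feedback and immediate early genes had a median Log2FC of 0.01 over 29 members, with no call without the block and 4 at an unadjusted p under 0.05; FOSL1, an AP-1 subunit, fell with it (Log2FC = -1.63, SE 0.29, edgeR adjusted p = 0.0373 with the replicate block), although its TPM ranges overlapped. Without replicate 3, 2 members were higher and 6 lower. DUSP6, a phosphatase induced by ERK, was 175, 280.4 and 112 TPM in CYST and 170.2, 148 and 312 TPM in MAT + COL. ETV4, an ETS factor downstream of ERK, was 23.7, 58.1 and 12.6 TPM in CYST and 8.86, 11.4 and 33.5 TPM in MAT + COL. In replicates 1 and 2 both genes were lower in MAT + COL, slightly so for DUSP6 in replicate 1, and in replicate 3 both were higher, and neither was called (0.86 and 0.542 as edgeR adjusted p). SPRY4, a Sprouty inhibitor, had the same order at 12.3, 25.2 and 7.01 TPM in CYST and 7.86, 5.98 and 10.8 TPM in MAT + COL (0.291 as the edgeR adjusted p). The median over the list was -0.04, -0.21 and 0.74 within replicates 1, 2 and 3.

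Each of the integrin, laminin and matrix protease lists had 1 call without the block, against 1.49% of all genes. CD44, a receptor for hyaluronan and osteopontin, was 73, 77.7 and 49.7 TPM in CYST and 155, 127 and 129 TPM in MAT + COL and rose by slightly less than the DEG criterion (Log2FC = 0.99, SE 0.16, edgeR adjusted p = 0.0383). SPP1, which encodes osteopontin, was 78.3, 34.1 and 8.11 TPM in CYST and 197, 138 and 581 TPM in MAT + COL. Every MAT + COL library was above every CYST library, but the spread was wide and SPP1 was not called (Log2FC = 2.98, SE 0.84, edgeR adjusted p = 0.102, 0.115 as the edgeR adjusted p with the block). ITGB6, the epithelial partner of the integrin alpha-V chain, was 47.4, 154 and 79.6 TPM in CYST and 290.2, 352 and 298 TPM in MAT + COL and rose with the block only (Log2FC = 1.83, SE 0.26, edgeR adjusted p = 0.0251 with the replicate block), while its partner ITGAV overlapped at 67.5, 49.2 and 32.5 TPM in CYST and 127, 81.6 and 45.2 TPM in MAT + COL (0.288 as the edgeR adjusted p). Over the 23 integrins and osteopontin receptors tested, 1 rose and the median was 0.12; the block gave 2 higher, and without replicate 3 there were 5 higher and 2 lower. The collagen I-binding chains ITGA1 and ITGA2 were 28.5, 20 and 22.7 TPM in CYST and 12.9, 15.7 and 16.7 TPM in MAT + COL, and 105, 152 and 115 TPM in CYST and 76.8, 104 and 139 TPM in MAT + COL, respectively. Neither was called, nor was ITGB1 at 746, 885 and 563 TPM in CYST and 649, 656 and 591 TPM in MAT + COL (0.415 as the edgeR adjusted p).

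LAMA3, the alpha chain of laminin-332, was 88.8, 89.1 and 133 TPM in CYST and 278, 292 and 445 TPM in MAT + COL. The groups were apart, and LAMA3 rose with the block (Log2FC = 1.64, SE 0.16, edgeR adjusted p = 0.0157 with the replicate block) but not without it (0.0623 as the edgeR adjusted p). LAMB3, a beta chain of laminin, was not called in either fit (1.17 as Log2FC). Of 22 laminin and hemidesmosome genes, COL17A1 was the 1 member that rose without the block, and the median was 0.29; 2 rose with the block, and without replicate 3 there were 4 in each direction. YAP targets and cytoskeletal genes gave no call in 35 members by edgeR, 7 of them at an unadjusted p under 0.05, without the block (median -0.06), TPM1, a tropomyosin, fell with it (Log2FC = -0.95, SE 0.17, edgeR adjusted p = 0.0398 with the replicate block), and without replicate 3 there were 1 higher and 7 lower. Over all genes 21.7% had an unadjusted p under 0.05, and without replicate 3 the calls were 9.3% higher and 9.79% lower. The kinases ROCK1 (-0.06) and ROCK2 (0.05 as Log2FC) overlapped between groups.

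Of 26 matrix proteases and inhibitors, MMP13 rose, and the median was 0.35. With the block 3 rose and 2 fell, and without replicate 3 there were 6 and 3. MMP3, stromelysin-1, was 3588, 3658 and 4310 TPM in CYST and 1451, 1985 and 2211 TPM in MAT + COL and fell with the block (Log2FC = -1.12, SE 0.18, edgeR adjusted p = 0.0327 with the replicate block). MMP9, a gelatinase, was 197, 175 and 277 TPM in CYST and 104, 113 and 115 TPM in MAT + COL and did the same (0.0468 as the edgeR adjusted p). ADAMTS1 (2.88) and PLAU, urokinase (0.80 as Log2FC), rose with the block. Within every same-numbered pair MMP13 was higher and MMP3 and MMP9 were lower in MAT + COL.

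Among TGF-beta, activin and EMT genes, TGFBR3, the co-receptor betaglycan, rose, with 0.921, 0.61 and 0.613 TPM in CYST and 14.8, 8.07 and 3.74 TPM in MAT + COL (Log2FC = 3.54, SE 0.50, edgeR adjusted p = 0.0308) and FST fell, out of 32 members with a median of 0.18. INHBA, the activin A subunit, was 494, 575 and 391 TPM in CYST and 71, 234 and 80.3 TPM in MAT + COL and fell with the block (Log2FC = -2.20, SE 0.33, edgeR adjusted p = 0.0286 with the replicate block), as did INHBB, the activin B subunit (Log2FC = -1.61, SE 0.27, edgeR adjusted p = 0.0336 with the replicate block). In both genes the TPM ranges of the groups were apart. Without replicate 3, 2 members were higher and 4 lower.

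Cytokines and receptors gave 1 call in 39 members, with a median of 0.24. IFNAR1, a type I interferon receptor chain, was 61, 82.3 and 61.1 TPM in CYST and 139, 158 and 127 TPM in MAT + COL and rose (Log2FC = 0.99, SE 0.17, edgeR adjusted p = 0.0439). With the block 5 rose and 1 fell. TSLP, an epithelial cytokine, was 19.2, 43.3 and 84 TPM in CYST and 87.9, 113 and 385 TPM in MAT + COL, shifted the same way in each same-numbered pair, and was called with the block only (Log2FC = 1.85, SE 0.19, edgeR adjusted p = 0.0163 with the replicate block). IL6R, the interleukin-6 receptor, was 18.3, 14.7 and 69.3 TPM in CYST and 3.82, 5.9 and 5.82 TPM in MAT + COL and fell with the block (Log2FC = -2.45, SE 0.49, edgeR adjusted p = 0.0459 with the replicate block). Without replicate 3, 9 members were higher and 3 lower. Interferon-stimulated genes gave no call in 26 members by edgeR without the block, 2 of them at an unadjusted p under 0.05. Their median was -0.15, and 0.08 with the block. With the block STAT2 rose (0.0466) and IFIT1 fell (0.041 as edgeR adjusted p). IFIT1 overlapped between the groups, at 2.83, 1.39 and 20.3 TPM in CYST and 0.961, 0.663 and 8.39 TPM in MAT + COL. Within replicates 1, 2 and 3 the median difference over the interferon-stimulated genes was 0.66, 0.27 and -0.44, and without replicate 3 there were 5 higher and none lower.

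Steroid receptors and gland transcription factors gave no call in 33 members by edgeR, 10 of them at an unadjusted p under 0.05, (median 0.19). ESR1, the estrogen receptor, was 35.5, 30.6 and 17.7 TPM in CYST and 30.3, 29.2 and 15.2 TPM in MAT + COL and PGR, the progesterone receptor, was 1.32, 1.21 and 1.17 TPM in CYST and 0.469, 1.41 and 0.628 TPM in MAT + COL. Both overlapped between groups, as did FOXA2, a gland transcription factor, at 4.83, 1.4 and 1.64 TPM in CYST and 1.5, 1.31 and 5.67 TPM in MAT + COL. PAQR7, another membrane progestin receptor, was 6.37, 4 and 1.81 TPM in CYST and 1.48, 0.678 and 0.949 TPM in MAT + COL and fell with the block (Log2FC = -1.94, SE 0.37, edgeR adjusted p = 0.0426 with the replicate block), the opposite direction to PAQR6; without replicate 3 there were 4 higher and 1 lower. WNT and stem cell genes gave no call in 21 members by edgeR, 4 of them at an unadjusted p under 0.05, (median -0.07). WNT11, a secreted WNT, was 23.9, 5.71 and 1.72 TPM in CYST and 0.473, 0.255 and 0.54 TPM in MAT + COL and fell with the block (Log2FC = -4.07, SE 0.82, edgeR adjusted p = 0.0468 with the replicate block), WNT5A fell likewise (-0.87 as Log2FC), and ALDH1A3, a retinoic acid-making enzyme, was 35.6, 15.4 and 110.2 TPM in CYST and 120.5, 224 and 615 TPM in MAT + COL and rose with it (Log2FC = 2.61, SE 0.43, edgeR adjusted p = 0.0334 with the replicate block). Without replicate 3, 2 members were higher and 4 lower.

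Calcium signalling and vitamin D genes had 2 rises and 2 falls in 30 members, the falls being GRP and EDN1 and the rises PLCD3, a phospholipase C (1.42), and CAMK2D, a calmodulin-dependent kinase (1.18 as Log2FC), with a median of -0.17; the block gave 4 and 3, and without replicate 3 there were 7 higher and 5 lower. CYP24A1, the vitamin D-degrading hydroxylase, was 23.5, 42.1 and 27.4 TPM in CYST and 11.6, 12.7 and 8.38 TPM in MAT + COL and fell with the block (Log2FC = -1.55, SE 0.26, edgeR adjusted p = 0.0336 with the replicate block), just missing the threshold without it (0.0527 as the edgeR adjusted p). Antioxidant and iron genes had 2 rises, GPX3 and MELTF, in 30 members (median -0.12). With the block 4 members fell: NQO1, SOD3, TFRC and SLC11A2. SLC11A2, a ferrous iron transporter, was 276, 331 and 165 TPM in CYST and 147, 37.9 and 16.4 TPM in MAT + COL (-2.54 as Log2FC with the block), and without replicate 3 there were 3 higher and 9 lower. Growth factor receptors other than ERBB gave no call in 22 members by edgeR without the block, 8 of them at an unadjusted p under 0.05 (median 0.26). With the block MET, FGFBP1 and IGFBP3 rose, although the TPM ranges of MET and IGFBP3 overlapped between the groups. Without replicate 3 there were 5 higher and 3 lower. Glycolysis and hypoxia genes gave no call in 31 members by edgeR, 1 of them at an unadjusted p under 0.05, (median 0.22), and PFKFB3, a regulator of glycolysis, rose with the block, and without replicate 3 there were 7 higher and 1 lower. The prostaglandin pathway gave no call in 15 members by edgeR, 2 of them at an unadjusted p under 0.05, in either fit, with a median of -0.11, and without replicate 3 there were 3 higher and 2 lower.

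In some genes replicate 3 stood above replicates 1 and 2 in both groups. IGFBP3, a carrier of insulin-like growth factors, was 6.21, 4.08 and 39.7 TPM in CYST and 30.3, 98.4 and 2170 TPM in MAT + COL. Each pair rose, yet CYST replicate 3 exceeded MAT + COL replicate 1, so that the groups overlapped and the edgeR adjusted p was 0.149 without the block and 0.0315 with it. S100A12, a calgranulin of host defense, was 85.5, 91.3 and 867 TPM in CYST and 214, 356 and 2082 TPM in MAT + COL, again higher in MAT + COL within each pair and called with the block only (Log2FC = 1.45, SE 0.22, edgeR adjusted p = 0.0303 with the replicate block). PFKFB3 at 25.8, 36.4 and 188 TPM in CYST and 117, 309.9 and 534 TPM in MAT + COL had the same pattern (0.0323 as the edgeR adjusted p with the block). SLCO2A1, a prostaglandin transporter, was 9.36, 7.13 and 9.51 TPM in CYST and 36.4, 29.4 and 2.88 TPM in MAT + COL, with replicates 1 and 2 higher and replicate 3 lower in MAT + COL, and was called in neither fit. All genes in the plot of paired levels were picked after their values were seen, and PFKFB3 is not among them.

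**Figure D4:**
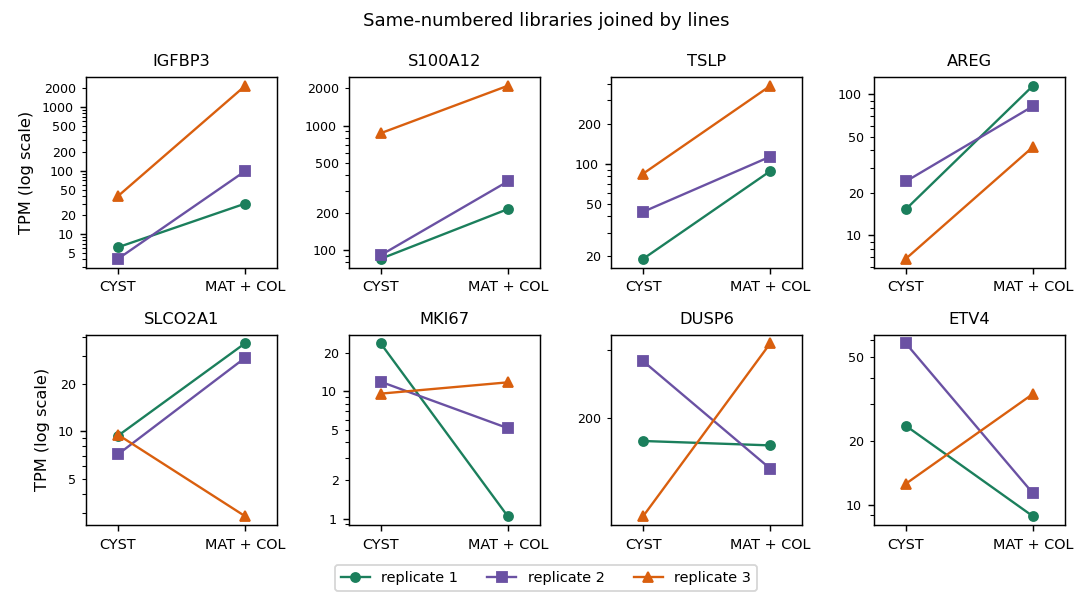
TPM on log axes (y) of 8 genes in CYST and MAT + COL (x), with same-numbered libraries joined by a line. IGFBP3, S100A12, TSLP and AREG rise in all 3 pairs from different starting levels, whereas SLCO2A1, MKI67, DUSP6 and ETV4 have replicate 3 moving against replicates 1 and 2.

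**Figure D5:**
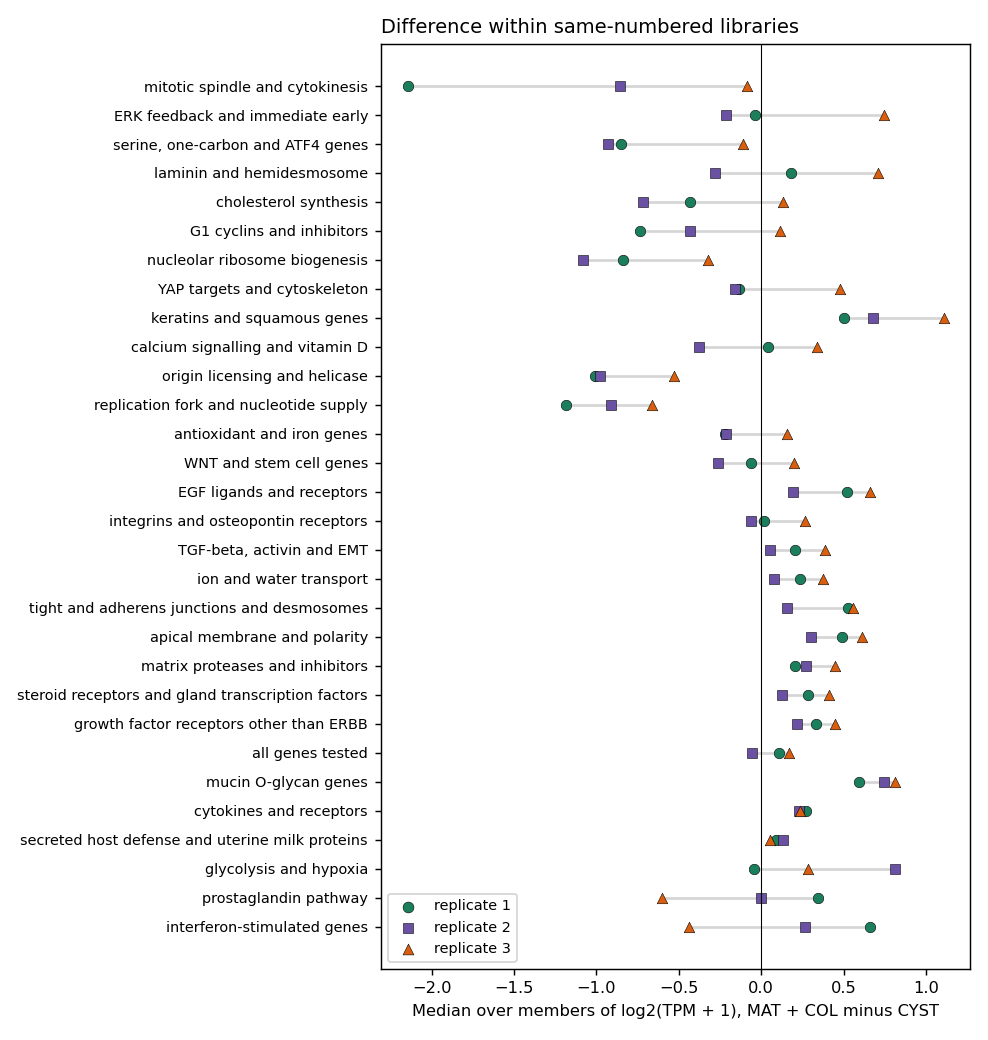
Median over list members of the difference in log2(TPM + 1) between MAT + COL and CYST (x axis) within replicates 1, 2 and 3, for 29 lists and for all genes tested (y axis), ordered by how far replicate 3 lies above or below the mean of the others. The mitotic list spans -2.15 to -0.08, and the interferon list runs the other way, from 0.66 in replicate 1 to -0.44 in replicate 3.

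The MAT libraries place these changes beside EGF without collagen I. MAT against CYST, which shares the CYST libraries, gave 216 calls (1.79%) by the edgeR test without the block, 102 genes higher (0.845%) and 114 lower (0.944%), with 87 upregulated (0.721%) and 88 downregulated (0.729%) DEGs. The block raised these to 592 higher (4.9%) and 685 lower (5.67%), or 10.6% in all, with 354 (2.93%) and 372 (3.08%) DEGs. The Log2FC of GRP was -6.88 in MAT + COL and -7.33 in MAT, that of CMAH 3.50 and 3.18, that of MCM5 -1.89 and -1.87, and that of VTCN1 7.67 and 7.64. CLDN10 was 8.64, 3.36 and 25.1 TPM in MAT and had Log2FC -3.95 and -2.55, and CYP24A1 was 17.4, 22.1 and 22 TPM in MAT and had -1.57 and -0.60. Tested directly, MAT + COL against MAT gave 0 calls by edgeR in 12470 genes in either fit, with 51 genes (0.409%) at an unadjusted p under 0.05 without the block and 618 (4.96%) with it. Among the 20 DEGs with the largest Log2FC, MAT + COL minus MAT ranged from -1.22 to 0.49 in the blocked fit, and the smallest edgeR adjusted p of all genes there was 0.955. No gene described here was therefore shown to differ between EGF with and without collagen I.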

How the data were processed

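Bovine uterine gland fragments were profiled by SMART-Seq RNA-seq in 9 libraries on day 5. The authors trimmed the paired reads, aligned them to ARS-UCD2.0 with CLC Genomics Workbench and deposited raw counts per gene and TPM per gene for 20679 genes, of which 2809 carry no symbol. The strand setting and annotation release are not given in the sources used here, so antisense or overlapping genes cannot be separated. Total counts per library were 6568968 to 17948600, and no molecular identifiers are described, so floors (3 counts per library) cover counting error only. No per-sample column was left out.

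The raw counts entered edgeR 4.0.16 under R 4.3.3 (filterByExpr, minimum count 10, TMM, glmQLFit, glmQLFTest, Benjamini-Hochberg), without and with the replicate number as a block. SE is the Log2FC divided by the square root of F. The numbers were used as pairs because the deviations of same-numbered MAT + COL and CYST libraries from their group means correlated at 0.28 to 0.35 (other pairs -0.35 to 0.11), a pattern from the data. The study's text refers to individuals for the MAT and MAT + COL libraries, and no source used here states that the CYST libraries came from the same animals. The deposited column headers also number the groups in parallel, but they name no animal. Components used log2 CPM with a prior count of 2 over 15667 genes. Sums of markers were compared by an exact permutation test of log2(TPM + 1). A check on simulated data required the right sign of large changes and, for edgeR and DESeq2, the right size. It set no limit on false calls. Alternatives used limma 3.58.1, DESeq2 1.42.0, thinned counts and other filters; plots used matplotlib 3.10.9 in Python 3.11.15.

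The comparison, 29 gene lists, 6 marker lists and tests were chosen with earlier results of these data known, so no list is independent evidence. Named genes were first the 10 upregulated and 10 downregulated DEGs with a symbol, TPM ranges that did not overlap and the largest Log2FC. To these were added the 5 and 5 largest failing only the TPM criterion and the 5 and 5 DEGs with the highest mean TPM over the 6 libraries. The 3 and 3 smallest p, up to 4 members per list by p, and members whose call the block changed were also named. A fixed set (EGFR, SPP1, ROCK1 and the like) completed them. ENSBTAG00000007392 and BPIFA1 were added after their values were seen. No sequences were printed, and promoter motifs were not searched, because no sequence table was used here. Some genes that the rule would name are not reported here.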

Additional observations from a re-analysis of the deposited data

How the results depend on the processing

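Counts of calls depended on the fit, and so did some directions. With the block, the sign of Log2FC differed from the fit without it in 437 of 12509 genes. The list median went from 0.12 to -0.0038 for integrins and osteopontin receptors and from -0.15 to 0.08 for interferon-stimulated genes. For secreted host defense and uterine milk proteins it went from -0.025 to 0.0276. Without the block, 186 genes were called, and RLE factors, upper quartile factors, no filter on low counts, counts thinned to the smallest library, and limma on log2(TPM + 1) or log2(TPM + 0.1) gave 190, 211, 197, 203, 184 and 159; DEGs numbered 143, 155, 157, 150, 154 and 134 against 141. The limma DEGs split into 93 higher and 61 lower, against 64 and 77 by edgeR, and limma without a filter gave 53 calls and 42 DEGs. The edgeR likelihood ratio test gave 1004 calls and 597 DEGs, DESeq2 1500 and 705, and a fit of all 9 libraries 601 and 339.

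With the replicate block there were 658 calls and 433 DEGs by edgeR, 1912 and 866 by DESeq2, 2035 and 779 over all 9 libraries and 772 and 477 on thinned counts. The following blocked fits were chosen after seeing the data: limma on log2(TPM + 1) gave 768 and 498, RLE factors 692 and 444, and a criterion of a mean TPM above 1 in at least 1 group 486 DEGs. For MAT against CYST the block gave 1277 calls, and 1304 on thinned counts. Leaving out 1 library gave 3 to 186 calls and 3 to 166 DEGs without the block, and leaving out a replicate number with the block gave 109 to 2406 calls, with 1190 DEGs without replicate 3. The cause of these differences was not tested.

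All 69 genes named in the text and called without the block were called with it, and none changed sign in the alternatives run. These genes were chosen as called in the same libraries, with TPM ranges apart, so a kept sign was close to fixed in advance. When 1 library was left out, 2 to 47 of them were still called. The blocked fit still called 41, 36 and 69 without replicates 1, 2 and 3. Of genes not called without the block, FOXA2 (0.13) was -0.06 with the block by edgeR, DESeq2 and RLE factors (-0.0595, -0.0637 and -0.0643), -0.27 over all 9 libraries with the block, and -0.97 to 0.82 when libraries were left out. ROCK1 (-0.06) was 0.0345 by limma on log2(TPM + 1) with or without a filter or block, 0.0383 on log2(TPM + 0.1), and -0.21 to 0.2209 with 1 library left out and 0.3083 without replicate 1 in the blocked fit. On leaving out libraries EGFR reached -0.0168 (without replicate 3, blocked) and otherwise ranged up to 0.66, S100A12 ranged from -0.54 to 3.43, DUSP6 from -0.3234 to 0.4755 (-0.491 without replicate 3, blocked), ROCK2 from -0.0538 to 0.12 (-0.1143 without replicate 3, blocked), ESR1 from -0.39 to 0.0069 and IFIT1 from -3.60 to 0.77. FOXA2 was -0.0953 without replicate 2 and -0.92 without replicate 3 in the blocked fit. The log2 difference of summed markers ranged from -0.48 to 0.11 for stroma, -0.0406 to 0.65 for endothelium and -0.0607 to 0.11 for immune cells.

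The 6 libraries leave 4 residual degrees of freedom, or 2 with the block, so that a gene not called may still differ. Depth differed between groups, and thinning to the smallest library left the number of calls at 203.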

Other observations

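Some DEGs outside the gene lists, picked after their values were seen, encode surface receptors and transcription factors. CXCR4, the receptor of the chemokine CXCL12, was 52.4, 61.7 and 29 TPM in CYST and 8.67, 11.1 and 15.6 TPM in MAT + COL and fell (Log2FC = -2.03, SE 0.33, edgeR adjusted p = 0.0392). PDPN, the membrane glycoprotein podoplanin, was 383, 271 and 193 TPM in CYST and 84.2, 53 and 92.7 TPM in MAT + COL and fell as well (Log2FC = -1.92, SE 0.29, edgeR adjusted p = 0.0372). In both genes the MAT + COL libraries were all below the CYST libraries.

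STAT6, the transcription factor downstream of interleukin-4, was 43.1, 44.2 and 47.5 TPM in CYST and 131, 146 and 109.9 TPM in MAT + COL and rose (Log2FC = 1.44, SE 0.19, edgeR adjusted p = 0.0292). LGALS4, an intestinal type galectin, also rose, with 76.4, 116 and 89.6 TPM in CYST and 292, 276 and 339.8 TPM in MAT + COL (Log2FC = 1.63, SE 0.22, edgeR adjusted p = 0.0292), and so did SCEL, sciellin of the cornified envelope, with 33.4, 37.9 and 28.9 TPM in CYST and 112, 178 and 91.5 TPM in MAT + COL (Log2FC = 1.87, SE 0.26, edgeR adjusted p = 0.0308). With the block only, AHR, the aryl hydrocarbon receptor (Log2FC = 1.52, SE 0.17, edgeR adjusted p = 0.0163 with the replicate block), UPK1B, a uroplakin (Log2FC = 2.30, SE 0.28, edgeR adjusted p = 0.0186 with the replicate block), and EVPL, envoplakin (Log2FC = 2.92, SE 0.37, edgeR adjusted p = 0.0211 with the replicate block), were also called.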
